A study of Mus musculus with 60 samples.

Results

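Subcutaneous white adipose tissue (scWAT) was compared with visceral white adipose tissue (vWAT) taken from the same 5 chow-fed sedentary mice. The comparison holds 10 of the 60 libraries of the series: every library of either fat depot whose labels name the chow diet and no training, paired by animal code. The series measured scWAT, vWAT and triceps muscle of 20 C57BL/6JN mice by bulk 3′ digital gene expression RNA-seq, which counts reads at the 3′ ends of transcripts, so that values are not scaled by transcript length. For 6 weeks the mice ate either chow, in which fat gave 10% of the energy, or HFD, a high-fat diet in which it gave 60%, and within each diet 5 mice had running wheels for the last 3 weeks and 5 stayed sedentary. The 4 groups were thus HFD trained, HFD sedentary, chow trained and chow sedentary. All mice were fasted for 6 h before collection, wheels were locked for the last 24 h, and the sample labels give an age of 12 weeks. The sources used here give neither the sex of the mice nor which subcutaneous and which visceral pad was taken.

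White fat under the skin and white fat in the abdomen arise from different embryonic mesoderm, and adult adipocytes and their precursors keep depot-specific developmental transcription factors, Hox genes among them. In mice, subcutaneous fat more readily forms beige adipocytes, which burn fatty acids in mitochondria uncoupled by UCP1. Visceral fat is covered by mesothelium, an epithelial sheet that subcutaneous fat does not have, and it is known as a rich site of resident macrophages and of acute-phase and complement proteins.

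The scWAT libraries held 505336 to 720220 counts (median 647497) and the vWAT libraries 580173 to 684758 (median 627181), so that 3 counts in a library, the upper limit that a count of 0 allows, are worth 4.17 to 5.94 CPM, counts per 1000000 counts of the library, in scWAT and 4.38 to 5.17 in vWAT. These floors cover counting error only. Of 19 adipocyte identity genes, 16 were higher in every fat library than in every triceps library. Markers of tissues that were not the target were also present, and they differed between mice (the plot of marker reads). Skeletal muscle markers summed to 19287, 119, 1905, 957 and 570 reads in scWAT of mice 1 to 5, against 142 to 399 reads in vWAT and 110420 to 133309 in triceps. Heart markers summed to at most 19 reads in scWAT, against 467, 515, 527, 9 and 7 reads in vWAT. Lymph node stroma genes summed to 9, 1170, 6, 746 and 470 reads in scWAT, against 15 to 66 in vWAT, and B cell markers to 5, 556, 3, 497 and 269 reads in scWAT, against 3 to 16 in vWAT. Liver markers other than Trf and Cyp2e1, which fat also expresses, summed to 66 to 788 reads in scWAT and 92 to 706 in vWAT, with the higher values in scWAT of mice 1 to 3 and in vWAT of mice 4 and 5. The library codes run in separate stretches for the depots, and within each depot for mice 1 to 3 and mice 4 to 5, so depot and code range cannot be told apart, and results are also given within each of these sets of mice where they differ.

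**Figure D1:**
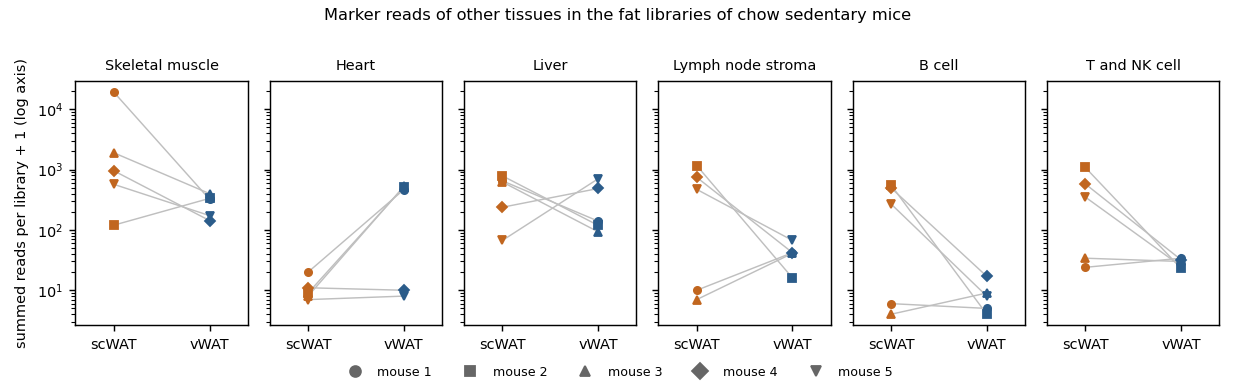
Summed reads of 6 marker lists per library (y axis, reads plus 1, log scale) in scWAT and vWAT of the 5 chow sedentary mice, a line joining the depots of each mouse. Skeletal muscle reads peak in scWAT of mouse 1 at 19287, heart reads lie between 467 and 527 in vWAT of mice 1 to 3, and lymph node stroma and lymphocyte reads are high in scWAT of mice 2, 4 and 5.

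Of 5762 genes tested, 530 (9.2%) differed between the depots at an adjusted p below 0.05 by edgeR's quasi-likelihood test with the mouse as a block. scWAT was higher for 175 of them (3.04% of genes tested) and lower for 355 (6.16%). Counting calls of 1 or more in absolute log2 fold change, 77 genes were higher and 179 lower, together 4.44%. Over all genes tested the median log2 fold change, always scWAT minus vWAT, was 0.02. The number of calls depended on which mice entered: 332 without mouse 4 and 278 without mouse 5, against 494 without mouse 1. In mice 1 to 3, which had heart reads in vWAT, it was 213 (3.7% of 5756 genes, 1.22% higher and 2.48% lower in scWAT). In mice 4 and 5, which had at most 9 heart reads, it was 910 (14.4% of 6332 genes, 7.41% higher and 6.96% lower). In mice 1 and 3, whose scWAT libraries had at most 9 lymph node stroma reads, it was 949 (16.1% of 5905 genes, 7.13% higher and 8.94% lower). Counts of list members given below for these sets of mice are to be read against these shares. No gene called with 5 mice was called in the opposite direction in any of these fits. The filter on low counts asked for enough counts in at least 5 libraries, so a gene near 0 in a depot passed it through the other depot and had to differ, and list counts describe the members tested only. In bulk tissue, fewer cells of a type and less RNA per cell cannot be told apart.

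Ucp1 and Pdk4 had the lowest adjusted p of the genes higher in scWAT, and Agt and Retnla of those lower in scWAT. Ucp1 encodes the uncoupling protein of brown and beige fat, and Pdk4 encodes a kinase that shuts pyruvate dehydrogenase and so spares glucose. Ucp1 was counted at 24.7, 235, 99.97, 604 and 126 CPM in scWAT of mice 1 to 5, and at 0 CPM in every library of vWAT. All scWAT libraries exceeded all vWAT libraries, and against a floor of 3 counts in each vWAT library Ucp1 was at least 45.6-fold higher in scWAT (adjusted p = 1.17e-06). Pdk4 had 272, 232, 278, 396 and 328 CPM in scWAT and 27.6, 44.0, 29.2, 23.4 and 54.2 CPM in vWAT, again without overlap (log2 fold change 3.13, SE 0.24, adjusted p = 2.15e-06). Triceps, which also expresses Pdk4, had a mean of 804 CPM, and without mouse 1, the one with most muscle reads, the log2 fold change was 3.10.

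Agt encodes angiotensinogen, the precursor of the angiotensins, and Retnla encodes RELM-alpha, a secreted protein of the resistin family. Agt had 12.4, 1.98, 4.17, 1.53 and 3.35 CPM in scWAT and 134, 145, 94.9, 92.1 and 163 CPM in vWAT (log2 fold change -4.63, SE 0.32, adjusted p = 1.27e-06). Retnla had 239, 77.2, 119, 105 and 83.8 CPM in scWAT and 1515, 632, 564, 977 and 818 CPM in vWAT (log2 fold change -2.83, SE 0.20, adjusted p = 1.46e-06). Every mouse was lower in scWAT for both genes, and the depots did not overlap. Ucp1 passed the filter on low counts through scWAT alone and Agt through vWAT alone, so that both had to differ.

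The promoter windows of these genes are shown because they had the lowest adjusted p in each direction: 250 bases before to 50 after the start, on the gene's own strand, from RefSeq on GRCm38.p6. They lie at chr8:83290098-83290397 (Ucp1, plus strand), chr6:5496229-5496528 (Pdk4, minus strand), chr8:124569657-124569956 (Agt, minus strand) and chr16:48842359-48842658 (Retnla, plus strand). Capitals mark matches on either strand to the motifs AGGTCA, known as a nuclear receptor half-site, then CCAAT, then TATAAA, then GGGCGG, the GC box, and CACGTG, the E-box, and no match overlaps another.
Ucp1: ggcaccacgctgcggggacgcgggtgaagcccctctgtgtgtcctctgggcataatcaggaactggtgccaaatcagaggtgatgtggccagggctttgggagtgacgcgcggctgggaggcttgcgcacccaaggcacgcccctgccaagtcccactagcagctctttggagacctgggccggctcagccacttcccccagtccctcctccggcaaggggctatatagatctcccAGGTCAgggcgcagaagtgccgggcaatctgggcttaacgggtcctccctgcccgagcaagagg
Pdk4: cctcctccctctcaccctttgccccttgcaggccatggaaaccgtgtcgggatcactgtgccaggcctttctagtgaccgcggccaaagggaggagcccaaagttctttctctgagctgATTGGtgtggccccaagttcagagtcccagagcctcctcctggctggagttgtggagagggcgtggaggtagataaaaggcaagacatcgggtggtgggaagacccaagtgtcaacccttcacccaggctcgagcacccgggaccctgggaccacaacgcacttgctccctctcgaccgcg
Agt: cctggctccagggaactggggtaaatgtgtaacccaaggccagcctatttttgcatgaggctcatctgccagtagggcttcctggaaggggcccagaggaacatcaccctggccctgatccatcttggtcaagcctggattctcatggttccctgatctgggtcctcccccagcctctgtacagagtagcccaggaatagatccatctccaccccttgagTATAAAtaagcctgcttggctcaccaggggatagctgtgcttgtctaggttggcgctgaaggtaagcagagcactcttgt
Retnla: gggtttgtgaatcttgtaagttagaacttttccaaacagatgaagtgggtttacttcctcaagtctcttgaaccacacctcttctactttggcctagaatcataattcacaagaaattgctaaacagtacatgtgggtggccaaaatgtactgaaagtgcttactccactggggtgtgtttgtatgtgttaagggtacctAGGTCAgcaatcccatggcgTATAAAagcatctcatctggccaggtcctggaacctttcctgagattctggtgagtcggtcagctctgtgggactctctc

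The capitals are AGGTCA 14 bases before the start in Ucp1, CCAAT on the opposite strand 131 bases before it in Pdk4, TATAAA 30 bases before it in Agt, and AGGTCA at 50 and TATAAA at 30 bases before it in Retnla. Of all 32851 promoter windows of this length, 16.3% hold AGGTCA, 37.4% CCAAT, 13.6% TATAAA, 35.7% GGGCGG and 7.15% CACGTG, so the matches are a description of these windows. Promoter windows were found for 78 of the 113 genes described.

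Developmental transcription factors differed between the depots, mostly at levels below the filter on low counts. None of 12 subcutaneous patterning genes and 3 of 39 Hox genes passed that filter, so the following values come from the fit without it, in which 5.31% of 21136 genes were called, 2.5% higher and 2.81% lower in scWAT. There, 4 of the 11 subcutaneous patterning genes with a read were called higher and 0 lower. Hoxc10, a posterior Hox gene, had 13.9, 5.94, 22.2, 4.59 and 28.5 CPM in scWAT and 0 CPM in every library of vWAT, at least 3.14-fold higher in scWAT (adjusted p = 2.76e-09). Shox2, a homeobox factor of limb development that is known as a subcutaneous marker, had 13.9, 17.8, 13.9, 12.2 and 18.4 CPM in scWAT and 1.72, 0, 0, 0 and 0 CPM in vWAT (log2 fold change 4.88, SE 0.77, adjusted p = 3.06e-08). Tbx15, a T-box factor of skeletal and adipose development, had 18.5, 3.96, 13.9, 6.12 and 8.38 CPM in scWAT and 0, 0, 0, 4.68 and 0 CPM in vWAT, with an overlap through mouse 4 (log2 fold change 3.18, SE 0.75, adjusted p = 0.000974). Triceps also expressed Tbx15, with a mean of 81.3 CPM, and muscle reads in scWAT were highest in mouse 1, which had the highest Tbx15 value; their part in the result was not tested.

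Posterior genes of the HoxA cluster were named after their values were seen. Hoxa10 had 26.3, 11.9, 20.8, 9.17 and 16.8 CPM in scWAT and 0 CPM in every library of vWAT, at least 3.55-fold higher in scWAT (adjusted p = 8.39e-11). Hoxa9 had 7.72, 3.96, 4.17, 4.59 and 10.1 CPM in scWAT and 0, 0, 0, 0 and 1.59 CPM in vWAT (log2 fold change 3.64, SE 1.06, adjusted p = 0.0149). En1 was at 0 in vWAT and between 0 and 5.03 CPM in scWAT, under the floor in both depots. Over the whole Hox list, 3 of the 26 genes with a read were called higher and 1 lower in the unfiltered fit, with a median log2 fold change of -0.14. Hoxb2, at 12.9 ± 5.71 CPM in scWAT and 26.6 ± 3.46 CPM in vWAT (SD, n = 5 each), was lower in scWAT in all 5 mice (log2 fold change -1.02, SE 0.30, adjusted p = 0.0445), a call lost without mouse 1, 2, 3 or 4. Hoxa5 had 3.89 ± 2.55 CPM in scWAT and 8.90 ± 4.97 CPM in vWAT and was not called (log2 fold change -1.17, SE 0.59, adjusted p = 0.396).

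Visceral patterning genes ran the other way in the same unfiltered fit, with 0 of 13 members called higher and 4 lower in scWAT. Of these 4, 1 was Thbd, a surface protein that is not a transcription factor. Gata6 and Osr1, mesodermal factors named after their values were seen, were also among the 4. Gata6 had 1.54, 1.98, 2.78, 4.59 and 3.35 CPM in scWAT and 5.17, 14.7, 5.84, 15.6 and 14.3 CPM in vWAT (log2 fold change -1.84, SE 0.58, adjusted p = 0.0341). Osr1 had 4.63, 0, 0, 6.12 and 3.35 CPM in scWAT and 19.0, 19.5, 5.84, 28.1 and 20.7 CPM in vWAT (log2 fold change -2.65, SE 0.51, adjusted p = 1.26e-05). Wt1, the Wilms tumour factor of visceral mesothelium and its descendants, had 0 counts in every scWAT library and 1.72, 8.14, 2.92, 3.12 and 3.19 CPM in vWAT, and Tcf21 had 0 in scWAT and 8.62, 4.88, 1.46, 1.56 and 4.78 CPM in vWAT. Both means are under the floor of 3 counts, so no fold is given. Thbd, thrombomodulin, passed the filter at 16.4 ± 9.13 CPM in scWAT and 56.0 ± 23.7 CPM in vWAT, lower in scWAT in 4 of 5 mice (log2 fold change -1.65, SE 0.40, adjusted p = 0.026), a call lost without mouse 2, 4 or 5. The Thbd call was also lost in mice 1 and 3, without lymph node reads, and in mice 1 to 3.

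Some mesothelial markers were at or near 0 in scWAT, while the list as a whole was present in both depots. The 20 markers summed to 232, 311, 166, 282 and 199 reads in scWAT, against 328 to 493 in vWAT. Of them, 2 passed the filter and 0 were called (median log2 fold change -0.56). Of the 20 markers, 11 had a read in scWAT and 20 in vWAT; 0 were called higher and 6 lower in scWAT in the unfiltered fit. Upk3b, an uroplakin of the mesothelial surface, had 0 CPM in every scWAT library and 10.3, 27.7, 0, 42.1 and 36.7 CPM in vWAT, at least 4.8-fold lower in scWAT (adjusted p = 5.81e-14). Msln, mesothelin, had 0, 0, 0, 0 and 1.68 CPM in scWAT and 1.72, 19.5, 0, 12.5 and 20.7 CPM in vWAT (log2 fold change -4.34, SE 0.91, adjusted p = 0.000103). Upk1b and Nkain4 were named after their values were seen. Upk1b was at 0 in scWAT and at 0, 8.14, 0, 20.3 and 12.8 CPM in vWAT, at least 1.69-fold lower in scWAT. Nkain4 had 0, 0, 0, 1.53 and 0 CPM in scWAT and 0, 16.3, 1.46, 18.7 and 15.9 CPM in vWAT (log2 fold change -4.30, SE 0.92, adjusted p = 0.000146). The vWAT library of mouse 3 held no read of Upk3b, Msln or Upk1b, while those of mice 2, 4 and 5 held reads of all 3.

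**Figure D2:**
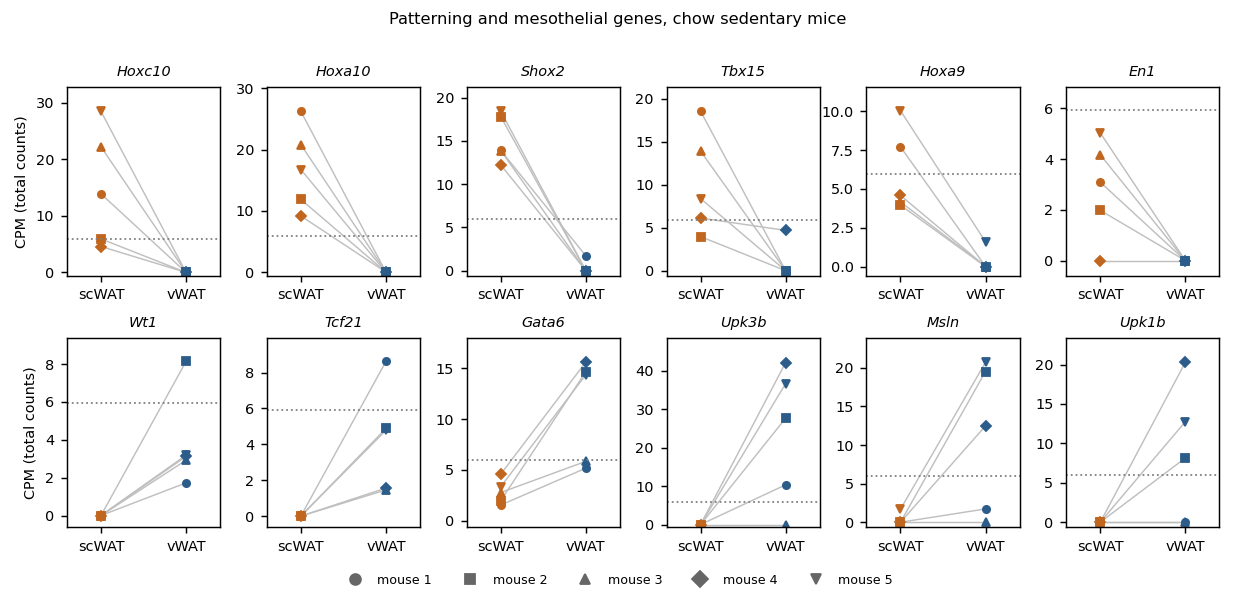
Level of 12 patterning and mesothelial genes in CPM (y axis, linear, each panel with its own scale) in scWAT and vWAT of the 5 chow sedentary mice, a line joining the depots of each mouse. The dotted line is the highest 3-count floor of these libraries, 5.94 CPM; Hoxc10, Hoxa10 and Shox2 lie above it in scWAT in most mice and near 0 in vWAT, and Upk3b, Msln and Upk1b rise above it only in vWAT.

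Thermogenic genes were higher in scWAT. Of 8 tested, 5 were called higher and 0 lower, with a median log2 fold change of 2.18 beside 0.02 over all genes; the list has 20 names, and Ucp1, Cpt1b and Kcnk3 passed the filter through scWAT alone, so that they had to differ. In mice 1 to 3, 4 of 7 were called higher and 1 lower. Cidea, a lipid droplet protein of brown and beige adipocytes, had 184, 459, 504, 879 and 581 CPM in scWAT and 19.0, 22.8, 19.0, 18.7 and 3.19 CPM in vWAT (log2 fold change 4.93, SE 0.44, adjusted p = 0.000464). Cpt1b, the muscle and brown fat form of the enzyme that carries fatty acids toward the mitochondrial matrix, had 24.7, 29.7, 20.8, 42.8 and 36.9 CPM in scWAT and 0, 3.26, 0, 1.56 and 0 CPM in vWAT (log2 fold change 4.81, SE 0.53, adjusted p = 5.57e-05). Its mean in triceps was 82.9 CPM, and without mouse 1 the log2 fold change was 4.64; scWAT of mice 3 and 4 held 1905 and 957 muscle marker reads, and their part in the result was not tested. Among the scWAT libraries, mouse 4 was the highest for Ucp1, Cidea, Cpt1b and Cox8b, while mouse 1 was the lowest for Ucp1, Cidea and Cox8b. Elovl3, a fatty acid elongase induced in brown fat, was below the filter, with 6.18, 13.9, 18.1, 26.0 and 5.03 CPM in scWAT and 0, 0, 0, 1.56 and 3.19 CPM in vWAT (log2 fold change 3.61, SE 0.69, adjusted p = 1.03e-05).

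Cox8b and Cox7a1 encode subunits of cytochrome c oxidase found in heart, muscle and brown fat, and in vWAT they moved with the heart reads. Cox8b had 805, 928, 1032, 1738 and 1272 CPM in scWAT and 248, 282, 245, 96.7 and 90.9 CPM in vWAT, with no overlap (log2 fold change 2.69, SE 0.48, adjusted p = 0.0199). Its log2 fold change was 1.88 in mice 1 to 3 and 4.05 in mice 4 and 5. Cox7a1, named after its values were seen, had 258, 261, 239, 719 and 276 CPM in scWAT and 198, 231, 181, 34.3 and 11.2 CPM in vWAT and was not called over 5 mice (log2 fold change 1.66, SE 1.00, adjusted p = 0.422); within mice 4 and 5 its log2 fold change was 4.52. Fabp3, the heart and muscle fatty acid binding protein, also named afterwards, had 195, 67.3, 33.3, 268 and 55.3 CPM in scWAT and 517, 614, 494, 0 and 1.59 CPM in vWAT and was not called (log2 fold change -0.79, SE 1.97, adjusted p = 0.859). Its direction turned between the sets of mice, with a log2 fold change of -2.71 in mice 1 to 3 and 7.42 in mice 4 and 5. Myh6, which encodes a heart myosin, had at most 1.68 CPM in scWAT and 48.3, 50.5, 43.8, 0 and 0 CPM in vWAT.

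Genes of the fatty acid oxidation list, which also holds Pdk4 and a peroxisomal enzyme, were higher in scWAT as a group. Of 23 tested, 15 were called higher and 0 lower, with a median log2 fold change of 0.77 and a positive value for all 23; with mice 1 to 3 alone 4 were called, and with mice 4 and 5 alone 18. Besides Cpt1b and Pdk4 the group included transporters, dehydrogenases and the peroxisomal bifunctional enzyme. Ehhadh, that enzyme, had 60.2, 98.9, 80.5, 93.3 and 98.9 CPM in scWAT and 19.0, 24.4, 33.6, 28.1 and 12.8 CPM in vWAT (log2 fold change 1.92, SE 0.23, adjusted p = 0.000123). Acadvl, which opens the oxidation of very long-chain acyl-CoA, had 289, 295, 421, 494 and 416 CPM in scWAT and 160.3, 189, 150.4, 147 and 136 CPM in vWAT (log2 fold change 1.32, SE 0.20, adjusted p = 0.000748). Hadhb, a subunit of the trifunctional protein, and Slc25a20, the carnitine carrier, were named after their values were seen. Their log2 fold changes were 1.24 (adjusted p = 0.000901) and 1.12 (adjusted p = 0.0023). Acsl1, which activates fatty acids at the mitochondrial surface and elsewhere, averaged 1370.0 ± 304 CPM in scWAT and 721 ± 136 CPM in vWAT (log2 fold change 0.96, SE 0.21, adjusted p = 0.00874, a call lost without mouse 5). Chchd10, a mitochondrial cristae protein that is abundant in muscle and heart, had 181, 133, 274, 405 and 286 CPM in scWAT and 43.1, 48.8, 112, 49.9 and 43.0 CPM in vWAT (log2 fold change 2.14, SE 0.25, adjusted p = 0.000196). Triceps held a mean of 382 CPM of Chchd10.

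The tricarboxylic acid cycle and its entry complexes had 7 of 21 genes called higher and 0 lower, with a median of 0.48; 5 were called higher in mice 1 to 3 and 16 in mice 4 and 5. Dlat, a subunit of pyruvate dehydrogenase, averaged 98.3 ± 31.0 CPM in scWAT and 40.9 ± 9.72 CPM in vWAT, Sucla2, a subunit of succinyl-CoA ligase, 211 ± 31.1 CPM in scWAT and 102 ± 16.8 CPM in vWAT, and Ogdh, the oxoglutarate dehydrogenase, 235 ± 27.4 CPM in scWAT and 125 ± 5.16 CPM in vWAT. None of these overlapped between depots. Fewer nuclear genes of the respiratory chain were called. Of 76 tested, 5 were called higher and 0 lower, with a median of 0.33; 0 were called in mice 1 to 3 and 54 in mice 4 and 5. Ndufa1 and Ndufs1, subunits of complex I, had log2 fold changes of 0.72 (adjusted p = 0.0141) and 0.72 (adjusted p = 0.0137), and both calls were lost without mouse 4 or 5.

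Of the 13 protein-coding genes of the mitochondrial genome, 7 were called higher and 0 lower, with a median of 0.59; 3 were called higher in mice 1 to 3 and 10 in mice 4 and 5. mt-Co3, a subunit of cytochrome c oxidase, had 29435, 27999, 37396, 31604 and 29218 CPM in scWAT and 17384, 14999, 18482, 18596 and 18910.0 CPM in vWAT (log2 fold change 0.86, SE 0.16, adjusted p = 0.00293). mt-Atp6, mt-Atp8 and mt-Co2 had log2 fold changes of 0.83, 0.90 and 0.84. All mitochondrial genes together took 17.0, 15.5, 20.6, 21.5 and 21.0% of counts in scWAT, against 14.9, 12.9, 15.1, 14.4 and 18.9% in vWAT. The share was higher in scWAT in 5 of 5 mice, by 3.88 ± 2.32 percentage points (SD, n = 5 pairs; two-sided exact sign-flip permutation test, p = 0.0625, the smallest that 5 pairs allow). Without the mitochondrial ribosomal RNAs, an alternative added after seeing the data, the shares were 14.8 ± 1.96% in scWAT and 9.44 ± 0.859% in vWAT, a difference of 5.34 points. Triceps is rich in all of these transcripts; muscle marker reads were 957 or more in scWAT of mice 1, 3 and 4 and their part in these differences was not tested.

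**Figure D3:**
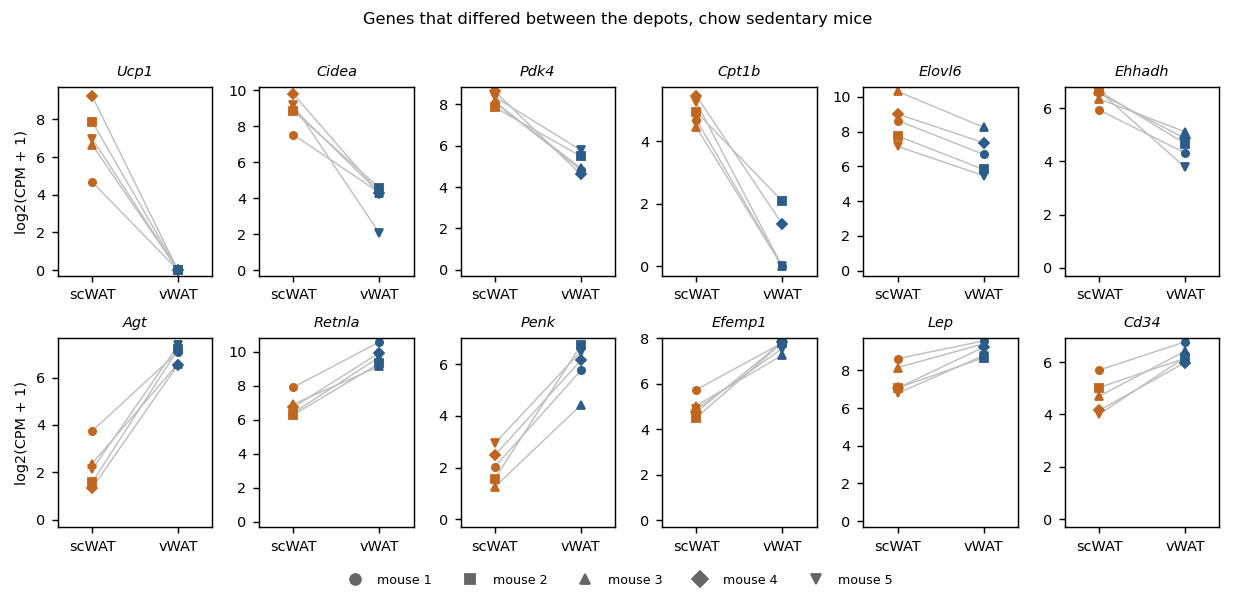
Level of 12 genes as log2 of CPM plus 1 (y axis) in scWAT and vWAT of the 5 chow sedentary mice, a line joining the depots of each mouse. The upper row holds genes higher in scWAT and the lower row genes lower in scWAT; the line of every mouse runs in the direction of the call, including Elovl6, whose levels overlap between depots.

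Lipid-making genes were higher in scWAT, by less and with wide differences between mice. Of 18 fatty acid synthesis genes tested, 7 were called higher and 0 lower, with a median of 0.59; 3 were called higher in mice 1 to 3 and 8 in mice 4 and 5. Elovl6, which elongates palmitate, had 395, 214, 1262, 512 and 141 CPM in scWAT and 102, 55.3, 304, 162 and 43.0 CPM in vWAT. The depots overlapped in level, yet in every mouse scWAT was higher (log2 fold change 1.92, SE 0.17, adjusted p = 6.53e-06), and the call was lost without the mouse block. Acacb, the acetyl-CoA carboxylase at the mitochondrial membrane whose product inhibits fatty acid import, had 58.7, 61.3, 95.8, 73.4 and 62.0 CPM in scWAT and 17.2, 19.5, 20.4, 17.2 and 14.3 CPM in vWAT (log2 fold change 2.02, SE 0.22, adjusted p = 4.68e-05). Acly, Acaca and Fasn, the successive enzymes from citrate to palmitate, had log2 fold changes of 0.73 (adjusted p = 0.0174), 0.78 (adjusted p = 0.0107) and 0.77 (adjusted p = 0.0195). The calls of Acly and Acaca were lost without mouse 3 or 5 and that of Fasn without mouse 3, 4 or 5, and all 3 were lost without the mouse block. For Acly the values of single mice spanned more than the depots did, with 672, 303, 2006, 1277 and 263 CPM in scWAT and 524, 182, 1177, 933 and 116 CPM in vWAT. Insig1, a sterol sensor, rose with them (log2 fold change 1.02, SE 0.17, adjusted p = 0.00151). In glycolysis 6 of 15 genes were called higher and 0 lower, with a median of 0.51, but 1 in mice 1 to 3. Pkm, pyruvate kinase, averaged 561 ± 223 CPM in scWAT and 270.3 ± 87.7 CPM in vWAT (log2 fold change 1.07, SE 0.17, adjusted p = 0.00106), against 1224 CPM in triceps; without mouse 1 its log2 fold change was 1.10. Branched-chain amino acid breakdown had 0 of 20 genes called in either direction, with a median of 0.07, and 4 called higher in mice 1 and 3.

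Storage and uptake genes were divided. In triglyceride synthesis 3 of 11 genes were called higher and 1 lower in scWAT, with a median of 0.03. Gpd1, which makes glycerol 3-phosphate, had 492 ± 169 CPM in scWAT and 238 ± 71.7 CPM in vWAT (log2 fold change 1.09, SE 0.18, adjusted p = 0.0014), and Agpat2 and Pck1, of glycerolipid and glycerol synthesis, had log2 fold changes of 0.74 and 0.74. The call of Agpat2 was lost without mouse 3, 4 or 5 and that of Pck1 without mouse 1, 3 or 5. Among 17 droplet and lipolysis genes, Plin2, a droplet coat protein, was higher (log2 fold change 0.74, SE 0.16, adjusted p = 0.00944, a call lost without mouse 5) and 3 were lower. In mice 1 and 3, 6 were called higher and 2 lower, with a median of 0.45 beside 0.09 over 5 mice. In both fits 10 members had a positive and 7 a negative log2 fold change. Cidec, which fuses droplets, had 1881, 1183, 1898, 1033 and 1486 CPM in scWAT and 3319.7, 3200.4, 3575, 2935 and 2342 CPM in vWAT (log2 fold change -1.02, SE 0.19, adjusted p = 0.00274). G0s2, an inhibitor of adipose triglyceride lipase, had 132 ± 48.7 CPM in scWAT and 271 ± 39.0 CPM in vWAT (log2 fold change -1.03, SE 0.21, adjusted p = 0.00639). Adrb3, the beta-3 adrenergic receptor, had 92.4 ± 12.0 CPM in scWAT and 156 ± 21.6 CPM in vWAT (log2 fold change -0.70, SE 0.18, adjusted p = 0.0217), a call lost without mouse 2, 4 or 5. The Adrb3 call was also lost in mice 1 and 3, without lymph node reads, and in mice 1 to 3.

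Of 18 genes of lipoprotein lipase and fatty acid uptake, 2 were called higher and 7 lower in scWAT, with a median of -0.41. In mice 1 to 3, 1 was called higher and 1 lower, and in mice 4 and 5, 2 higher and 9 lower. Mice 1 and 3 had 4 called higher and 5 lower. Lpl, the lipase that frees fatty acids from circulating triglyceride, had 7654, 3275, 5799.6, 3919.8 and 4718 CPM in scWAT and 8863, 10819, 10539.5, 10068 and 8532 CPM in vWAT (log2 fold change -0.96, SE 0.21, adjusted p = 0.011), a call lost without mouse 5 and in mice 1 and 3, where the log2 fold change was -0.45. Apoe, the apolipoprotein that macrophages and adipocytes secrete, averaged 1219 ± 304 CPM in scWAT and 2478 ± 414 CPM in vWAT (log2 fold change -1.01, SE 0.19, adjusted p = 0.0037). Slc27a1, a fatty acid transporter, was higher instead, at 135 ± 35.4 CPM in scWAT and 64.9 ± 11.0 CPM in vWAT (log2 fold change 1.08, SE 0.20, adjusted p = 0.00261). Genes of caveolae, the membrane pits abundant on adipocytes and endothelium, were among the lower ones. Cav1 had 1656, 803, 1472, 891 and 839 CPM in scWAT and 2968, 2531, 2741, 2957 and 2699 CPM in vWAT (log2 fold change -1.32, SE 0.20, adjusted p = 0.000728). Cavin3 had 102, 25.7, 58.3, 45.9 and 31.8 CPM in scWAT and 303, 203, 282, 217 and 202 CPM in vWAT (log2 fold change -2.23, SE 0.20, adjusted p = 9.28e-06).

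Most adipocyte hormone genes were lower in scWAT, with 1 of 8 called higher and 6 lower and a median of -0.87. In mice 1 to 3, 0 were called higher and 3 lower, and in mice 4 and 5, 1 higher and 6 lower. Mice 1 and 3 had 2 called higher and 4 lower. Lep, leptin, had 392, 133, 282, 133 and 109 CPM in scWAT and 752, 405, 676, 595 and 438 CPM in vWAT (log2 fold change -1.54, SE 0.20, adjusted p = 0.000228). Retn, resistin, had 2792, 1706, 2667, 1889.6 and 1913 CPM in scWAT and 6260.2, 5374, 5941, 5594 and 4146 CPM in vWAT (log2 fold change -1.29, SE 0.17, adjusted p = 0.000323). Neither overlapped between depots. Adipoq, adiponectin, had 5198, 3012, 4980.4, 2977 and 4279 CPM in scWAT and 7058, 8113, 7254, 6922 and 7341 CPM in vWAT (log2 fold change -0.84, SE 0.19, adjusted p = 0.0129), a call lost without mouse 4 or 5. The Adipoq call was also lost in mice 1 and 3, without lymph node reads, and in mice 1 to 3. Rbp4, the retinol carrier, had 607, 301, 769, 373 and 261 CPM in scWAT and 1341, 1291, 1699.9, 1331 and 792 CPM in vWAT (log2 fold change -1.51, SE 0.20, adjusted p = 0.000245). Nnat, neuronatin, had 90.3 ± 38.6 CPM in scWAT and 168 ± 66.3 CPM in vWAT (log2 fold change -0.86, SE 0.19, adjusted p = 0.0112), a call lost without mouse 2, 4 or 5 and without the mouse block. It was lost in mice 1 and 3 and in mice 1 to 3 as well. Nrg4, a growth factor secreted by brown and beige fat, was the member called higher, with 71.0, 115, 66.6, 71.9 and 92.1 CPM in scWAT and 37.9, 70.0, 42.4, 43.7 and 51.0 CPM in vWAT (log2 fold change 0.81, SE 0.17, adjusted p = 0.00814). Cfd, adipsin, had 8863, 9429, 6917, 6910.1 and 10758 CPM in scWAT and 5628, 13835, 5584, 7826 and 9241 CPM in vWAT and was not called (log2 fold change 0.14, SE 0.20, adjusted p = 0.731). Mest, an imprinted gene known to follow fat cell enlargement in mice, had 51.0, 9.89, 23.6, 15.3 and 16.8 CPM in scWAT and 147, 71.6, 68.6, 54.6 and 113 CPM in vWAT (log2 fold change -1.94, SE 0.24, adjusted p = 0.000185).

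Further secreted and metabolic genes were lower in scWAT in every mouse without overlap. Of these, Penk and Sult1e1 passed the filter through vWAT alone, so that they had to differ. Penk, preproenkephalin, had 3.09, 1.98, 1.39, 4.59 and 6.70 CPM in scWAT and 53.4, 106, 20.4, 70.2 and 89.3 CPM in vWAT (log2 fold change -4.09, SE 0.31, adjusted p = 2.15e-06). Sult1e1, the estrogen sulfotransferase, had 1.54, 0, 1.39, 3.06 and 3.35 CPM in scWAT and 19.0, 30.9, 19.0, 54.6 and 65.4 CPM in vWAT (log2 fold change -4.10, SE 0.40, adjusted p = 1.68e-05). Phgdh, which opens serine synthesis, had 136, 81.1, 91.6, 96.3 and 72.0 CPM in scWAT and 436, 345, 355, 346 and 214 CPM in vWAT (log2 fold change -1.78, SE 0.16, adjusted p = 9.17e-06). Aldh1a1, which makes retinoic acid from retinal, had 168, 53.4, 91.6, 32.1 and 38.5 CPM in scWAT and 226, 207, 219, 215 and 259.9 CPM in vWAT (log2 fold change -1.69, SE 0.35, adjusted p = 0.0202), a call lost without mouse 2. Mt1 and Mt2 encode metallothioneins, metal-binding proteins induced by glucocorticoids and zinc. Mt2 had 27.8, 23.7, 40.3, 29.0 and 28.5 CPM in scWAT and 202, 122, 564, 76.5 and 167 CPM in vWAT (log2 fold change -2.63, SE 0.28, adjusted p = 9.5e-05), and Mt1 had a log2 fold change of -1.24 (adjusted p = 0.00055).

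Over 5 mice a share of matrix genes was lower in scWAT and no collagen was called. Of 32 matrix proteins and modifiers tested, 0 were called higher and 11 lower, with a median of -0.62, and 4 were called lower in mice 1 to 3 and 16 in mice 4 and 5. In mice 1 and 3, without lymph node reads, 5 of 35 were called higher and 8 lower, with a median of -0.05. Of 13 fibrillar and network collagens, 0 were called in either direction, with a median of -0.21. In mice 1 and 3, 4 were called higher and 0 lower, with a median of 0.32. In mice 4 and 5, 0 were called higher and 2 lower, with a median of -0.55. Efemp1, a fibulin, had 52.5, 21.8, 31.9, 26.0 and 28.5 CPM in scWAT and 222, 223, 152, 228 and 187 CPM in vWAT (log2 fold change -2.61, SE 0.21, adjusted p = 3.28e-06). Fn1, fibronectin, had 38.6, 45.5, 19.4, 7.64 and 11.7 CPM in scWAT and 221, 148, 139, 114 and 149.9 CPM in vWAT (log2 fold change -2.72, SE 0.25, adjusted p = 1.39e-05). Thbs1, thrombospondin, had 13.9, 15.8, 11.1, 4.59 and 11.7 CPM in scWAT and 67.2, 84.6, 49.7, 88.9 and 94.1 CPM in vWAT (log2 fold change -2.68, SE 0.27, adjusted p = 2.84e-05). Fbn1, fibrillin, averaged 23.4 ± 16.6 CPM in scWAT and 69.5 ± 17.3 CPM in vWAT (log2 fold change -1.60, SE 0.25, adjusted p = 0.00103). Timp4, an inhibitor of metalloproteinases, had 95.8, 69.3, 75.0, 68.8 and 70.4 CPM in scWAT and 245, 233, 235, 332 and 195 CPM in vWAT (log2 fold change -1.65, SE 0.17, adjusted p = 2.87e-05).

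Markers of stromal progenitors and vessels leaned the same way. Of 13 progenitor markers tested, 0 were called higher and 6 lower (median -0.43). In mice 1 to 3, 0 were called higher and 3 lower, and in mice 4 and 5, 1 higher and 7 lower. Cd34, a surface protein of progenitors and endothelium, had 51.0, 31.7, 25.0, 16.8 and 15.1 CPM in scWAT and 109, 70.0, 84.7, 62.4 and 71.7 CPM in vWAT (log2 fold change -1.52, SE 0.22, adjusted p = 0.000464). Mgp, matrix Gla protein, had 46.3, 7.92, 25.0, 42.8 and 16.8 CPM in scWAT and 162, 159.5, 155, 137 and 234 CPM in vWAT (log2 fold change -2.57, SE 0.37, adjusted p = 0.00309). Ly6a, the stem cell antigen Sca-1, and Anxa3, an annexin, had log2 fold changes of -0.74 and -1.18. Of 19 endothelial markers, 0 were called higher and 4 lower (median -0.47), and 1 was called lower in mice 1 to 3 and 6 in mice 4 and 5. Sox17, an arterial transcription factor, averaged 5.57 ± 2.44 CPM in scWAT and 24.5 ± 5.10 CPM in vWAT (log2 fold change -2.09, SE 0.37, adjusted p = 0.00243). It passed the filter through vWAT alone, so that it had to differ. Emcn, at a log2 fold change of -0.89, lost its call without any 1 of the 5 mice, and Esam, at -0.69, without mouse 2, 4 or 5. The Esam call was also lost in mice 1 and 3, without lymph node reads, and in mice 1 to 3. Of 8 smooth muscle and pericyte markers, 3 were lower, with Mylk, myosin light chain kinase, at 12.7 ± 6.03 CPM in scWAT and 46.5 ± 5.13 CPM in vWAT (log2 fold change -1.80, SE 0.29, adjusted p = 0.00116). Acta2, smooth muscle actin, had a log2 fold change of -1.65, a call lost without mouse 2, 3 or 4, and Rgs5, of pericytes, -0.79, a call lost without mouse 2, 3 or 5.

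Macrophage and innate immune genes were lower in scWAT. Of 14 macrophage markers tested, 0 were called higher and 7 lower, with a median of -0.87. In mice 1 to 3, 0 were called higher and 3 lower, and in mice 4 and 5, 1 higher and 5 lower. Lpl, which adipocytes express at high level, is among the 7 lower over 5 mice. Folr2 and Lgals3, of resident and lipid-laden macrophages, were among them. Folr2 had 7.72, 7.92, 12.5, 10.7 and 3.35 CPM in scWAT and 51.7, 19.5, 46.7, 28.1 and 25.5 CPM in vWAT (log2 fold change -1.94, SE 0.31, adjusted p = 0.00113). It passed the filter through vWAT alone, so that it had to differ. Lgals3, galectin-3, had 66.4, 41.6, 72.2, 76.4 and 43.6 CPM in scWAT and 212, 122, 150.4, 145 and 104 CPM in vWAT (log2 fold change -1.23, SE 0.18, adjusted p = 0.00052). C1qa, a chain of the first complement component made by macrophages, averaged 15.9 ± 5.40 CPM in scWAT and 42.2 ± 9.48 CPM in vWAT (log2 fold change -1.36, SE 0.28, adjusted p = 0.0062). Ccl6, a chemokine of myeloid cells, had 54.1, 31.7, 88.9, 24.5 and 35.2 CPM in scWAT and 249.9, 156, 362, 236 and 139 CPM in vWAT (log2 fold change -2.27, SE 0.20, adjusted p = 6.53e-06).

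Of 17 acute-phase and complement genes, 0 were called higher and 8 lower in scWAT, with a median of -0.41; 4 were called lower in mice 1 to 3 and 8 in mice 4 and 5. Hp, haptoglobin, had 958, 495, 648, 746 and 652 CPM in scWAT and 2092, 2188, 2097, 1907 and 2129 CPM in vWAT (log2 fold change -1.56, SE 0.19, adjusted p = 0.000169). C6, of the membrane attack complex, had 4.63, 3.96, 4.17, 1.53 and 3.35 CPM in scWAT and 32.7, 34.2, 24.8, 25.0 and 41.5 CPM in vWAT (log2 fold change -3.04, SE 0.35, adjusted p = 8.25e-05). Orm3, an acute-phase orosomucoid, had 3.09, 1.98, 13.9, 4.59 and 5.03 CPM in scWAT and 60.3, 63.5, 87.6, 53.1 and 38.3 CPM in vWAT (log2 fold change -3.29, SE 0.32, adjusted p = 1.58e-05), and Serpina3n, a protease inhibitor, had a log2 fold change of -1.23. C6 and Orm3 passed the filter through vWAT alone, so that they had to differ. Orm3 and Serpina3n belong to families of near-identical copies between which reads may be split, so both values are uncertain in that respect. Liver also makes these proteins. Liver marker reads were higher in scWAT of mice 1 to 3 and in vWAT of mice 4 and 5, while the genes named here were lower in scWAT in every mouse; the part of liver reads in the result was not tested.

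Lymphocyte genes could not be compared as a depot feature. Over 5 mice no B cell and no T or NK cell marker passed the filter, and their sums followed the lymph node stroma genes, high in scWAT of mice 2, 4 and 5. Without the filter, 13 of 13 B cell and 12 of 18 T and NK cell markers were called higher and 0 lower. Ccl21a, a chemokine of lymph node stroma whose near-identical copies may share its reads, had 4.63, 1451, 4.17, 667 and 429 CPM in scWAT and 67.2, 14.7, 45.3, 37.5 and 74.9 CPM in vWAT and was not called (log2 fold change 2.11, SE 1.95, adjusted p = 0.608). In mice 1 and 3 alone its log2 fold change was -3.53, so its direction turned. MHC class II genes had 0 of 7 members called over 5 mice, with 523, 1912, 416, 1582 and 973 summed reads in scWAT and 667 to 839 in vWAT, again high in the scWAT libraries of mice 2, 4 and 5. In mice 4 and 5, 6 of 9 were called higher and 0 lower, with a median of 0.86. In mice 1 and 3, 0 of 7 were called higher and 2 lower, with a median of -0.49. The fit without the filter called 3 of 9 higher and 0 lower. H2-Q10, a secreted class I molecule known from liver, was higher in scWAT, with 139, 98.9, 211, 127 and 146 CPM in scWAT and 22.4, 14.7, 62.8, 40.6 and 33.5 CPM in vWAT (log2 fold change 2.15, SE 0.19, adjusted p = 8.85e-06). It belongs to a family of near-identical copies, so the value is uncertain in that respect. Liver marker reads were higher in scWAT of mice 1 to 3 and in vWAT of mice 4 and 5, and their part in the result was not tested.

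Nerve genes went both ways, and blood and muscle genes differed as well. Of 2 Schwann cell markers that passed the filter, 0 were called higher and 1 lower in scWAT, with Scn7a, a sodium channel protein, at 55.1 ± 15.2 CPM in scWAT and 109.9 ± 33.4 CPM in vWAT (log2 fold change -0.93, adjusted p = 0.0217). In the fit without the filter, 6 of 9 members had a positive and 3 a negative log2 fold change (median 1.80). There, 1 was called higher and 1 lower. Mbp and S100b, of myelinating cells, were higher in scWAT in every mouse. Both passed the filter through scWAT alone, so that they had to differ. Mbp had 86.5, 35.6, 40.3, 38.2 and 62.0 CPM in scWAT and 1.72, 3.26, 2.92, 15.6 and 4.78 CPM in vWAT (log2 fold change 3.19, SE 0.42, adjusted p = 0.000323). S100b, which adipocytes also express, had 26.3, 33.6, 16.7, 59.6 and 30.2 CPM in scWAT and 8.62, 1.63, 2.92, 1.56 and 3.19 CPM in vWAT (log2 fold change 3.18, SE 0.43, adjusted p = 0.000323). Summed Schwann cell markers overlapped at 86 to 243 reads in scWAT and 171 to 252 in vWAT. Of 5 erythrocyte genes, 0 were called higher and 4 lower (median -1.19). Hbb-bs, a globin whose copies may share reads, had 2426, 1332, 1959, 1807 and 2458 CPM in scWAT and 8206, 4257, 5254, 2982 and 4609.5 CPM in vWAT (log2 fold change -1.25, SE 0.20, adjusted p = 0.00111). Tnni2, fast troponin I, had 947, 17.8, 76.4, 73.4 and 46.9 CPM in scWAT and 0, 1.63, 0, 0 and 1.59 CPM in vWAT, against 11459.6 CPM in triceps (log2 fold change 7.89, SE 0.62, adjusted p = 2.22e-05); without mouse 1 the log2 fold change was 5.86. Mylpf and Tnnc2, also of fast muscle fibres, were called higher (7.06 and 7.27), calls lost without mouse 3 or 4 for both, without mouse 5 for Tnnc2, and with limma-voom for both. Tnni2 and Mylpf passed the filter through scWAT alone, so that they had to differ. Acta1, skeletal actin, had 6104, 33.6, 492, 269 and 184 CPM in scWAT and 103, 78.1, 143, 82.7 and 163 CPM in vWAT and was not called (log2 fold change 1.64, SE 1.22, adjusted p = 0.517).

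**Figure D4:**
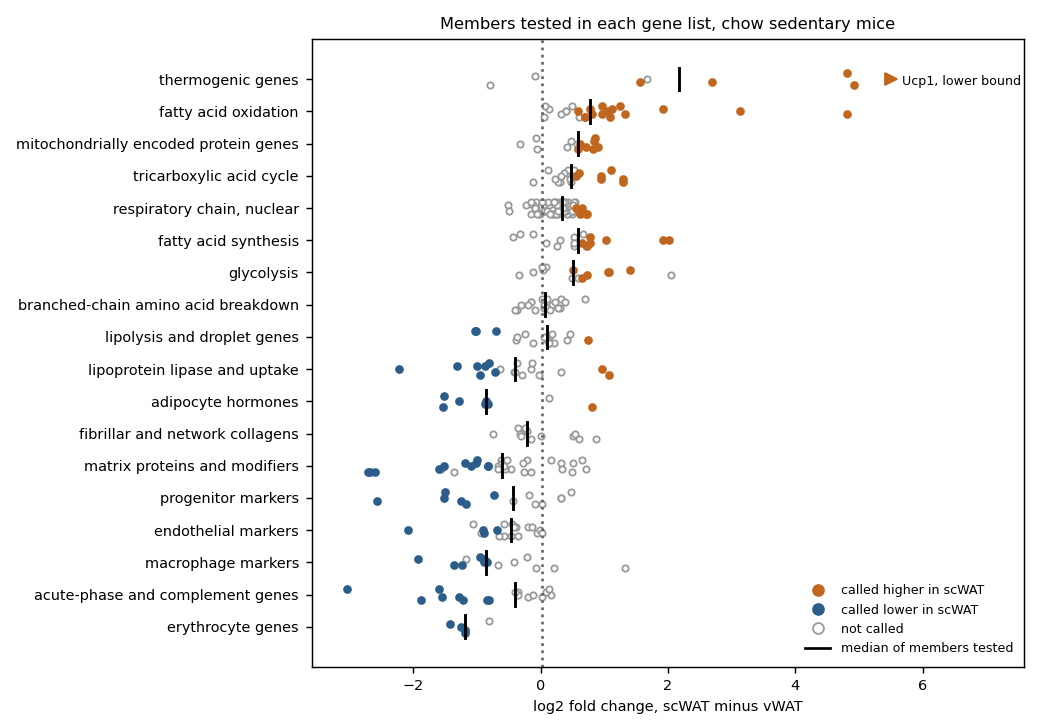
Log2 fold change, scWAT minus vWAT (x axis), of each member tested in 18 gene lists (y axis), with called members filled, the list median as a bar and the median of all genes, 0.02, as a dotted line. Called members of the fatty acid oxidation, tricarboxylic acid cycle, respiratory chain and fatty acid synthesis lists lie to the right, and those of the matrix, macrophage, acute-phase and erythrocyte lists to the left, while the hormone list has Nrg4 to the right and 6 to the left; Ucp1 is drawn at its lower bound, with no read in vWAT.

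The depot difference was then measured in the other mice of the series, each group fitted on its own 10 fat libraries. Of the 175 genes called higher in scWAT of chow sedentary mice, 64 of the 160 tested in HFD trained mice, 45 of 156 in HFD sedentary mice and 62 of 162 in chow trained mice were called higher there too. Of the 355 called lower, 145 of 348, 122 of 348 and 170 of 336 were called lower in the same 3 groups. Over all genes tested in each group, 4.7% were called higher and 5.71% lower in HFD trained mice (10.4% in all), 3.11% and 5.96% in HFD sedentary mice (9.07%), and 2.1% and 4% in chow trained mice (6.1%). Calls in the opposite direction numbered 1 in HFD trained, 4 in HFD sedentary and 0 in chow trained mice.

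Agt and Penk were called lower in scWAT in every group, and Rbp4 was too. Shox2, below the filter in each group, averaged 12.6 ± 4.77 CPM in scWAT and 0.607 ± 0.831 CPM in vWAT of HFD trained mice, 12.7 ± 4.47 CPM and 0.299 ± 0.669 CPM in HFD sedentary mice, and 7.61 ± 1.89 CPM and 0.636 ± 0.871 CPM in chow trained mice (scWAT first, SD, n = 5 each). Agt had log2 fold changes of -3.98, -3.06 and -3.59 in HFD trained, HFD sedentary and chow trained mice, all called, beside -4.63 in chow sedentary mice. Penk had -4.42, -3.32 and -4.27 in the same order, also called. Rbp4 had -1.26, -1.46 and -1.25. In the same order, Penk reached at most 5.72, 12.7 and 5.14 CPM in scWAT, and Agt at most 19.2, 24.0 and 13.1 CPM. Penk in each of these groups and Agt in chow trained mice passed the filter through vWAT alone, so that they had to differ. Ucp1 had no read in vWAT of any mouse in the 4 groups. In scWAT it averaged 130.5 ± 170.3 CPM in HFD trained, 7.55 ± 3.48 CPM in HFD sedentary, 215 ± 363 CPM in chow trained and 218 ± 229 CPM in chow sedentary mice (SD, n = 5 each), with the SD above the mean in every group but HFD sedentary.

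The interaction of depot and diet was tested between HFD sedentary and chow sedentary mice over all 40 fat libraries. The depot difference itself differed between them for 133 of 7931 genes (1.68%). Of these, 86 moved toward scWAT (1.08%) and 47 toward vWAT (0.593%). Markers of other tissues were among the calls. Negative were 3 of 8 B cell, 2 of 14 T and NK cell and 1 of 8 plasma cell genes tested. Positive were 1 of 5 heart and 1 of 17 liver markers. The part of reads of other tissues in the interaction was not tested. The chow sedentary libraries enter both this test and the depot comparison above, so their values are given side by side. Training on chow gave 0 calls (edgeR with the mouse as a block; 306 genes at an unadjusted p below 0.05, and 0 calls without the block).

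Hormone genes were among those whose depot difference differed between the diets, with 5 of 8 positive and 0 negative. Retn averaged 2933 ± 365 CPM in scWAT and 2760.1 ± 1135 CPM in vWAT of HFD sedentary mice, against 2194 ± 498 CPM and 5463 ± 810.1 CPM in chow sedentary mice (scWAT first; interaction 1.55, SE 0.24, adjusted p = 0.00111). Cfd averaged 7143 ± 3849 CPM in scWAT and 2158 ± 1444 CPM in vWAT of HFD sedentary mice, against 8576 ± 1666 CPM and 8423 ± 3398 CPM in chow sedentary mice (interaction 1.72, SE 0.28, adjusted p = 0.00123). Lep averaged 1729 ± 713 CPM in scWAT and 2481 ± 747 CPM in vWAT of HFD sedentary mice, against 209.7 ± 123 CPM and 573 ± 149 CPM in chow sedentary mice, with an interaction of 1.04. Adipoq and Nnat had interactions of 0.85 and 1.68.

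The matrix gene Efemp1 and the caveolar gene Cavin3 also had a smaller depot difference on HFD. Efemp1 averaged 168 ± 38.5 CPM in scWAT and 253 ± 37.9 CPM in vWAT of HFD sedentary mice, against 32.1 ± 12.0 CPM and 202 ± 32.7 CPM in chow sedentary mice (interaction 2.07, SE 0.32, adjusted p = 0.00111). Cavin3 averaged 239 ± 70.3 CPM in scWAT and 321 ± 25.7 CPM in vWAT of HFD sedentary mice, against 52.7 ± 30.3 CPM and 242 ± 47.5 CPM in chow sedentary mice (interaction 1.83, SE 0.29, adjusted p = 0.00111). For both genes the scWAT level differed more between the diets than the vWAT level. Fmo1, a flavin monooxygenase, had an interaction of 1.32, from 1.12 in HFD sedentary and -0.19 in chow sedentary mice. Genes with a negative interaction included Lctl, a klotho-family protein (-2.22, SE 0.35, adjusted p = 0.00111), Plin2 (-1.05) and Ehhadh (-1.44). Elovl6 averaged 21.6 ± 5.67 CPM in scWAT and 19.0 ± 5.33 CPM in vWAT of HFD sedentary mice, against 505 ± 448 CPM and 133 ± 106 CPM in chow sedentary mice, and its interaction missed the threshold (-1.68, SE 0.44, adjusted p = 0.0549).

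**Figure D5:**
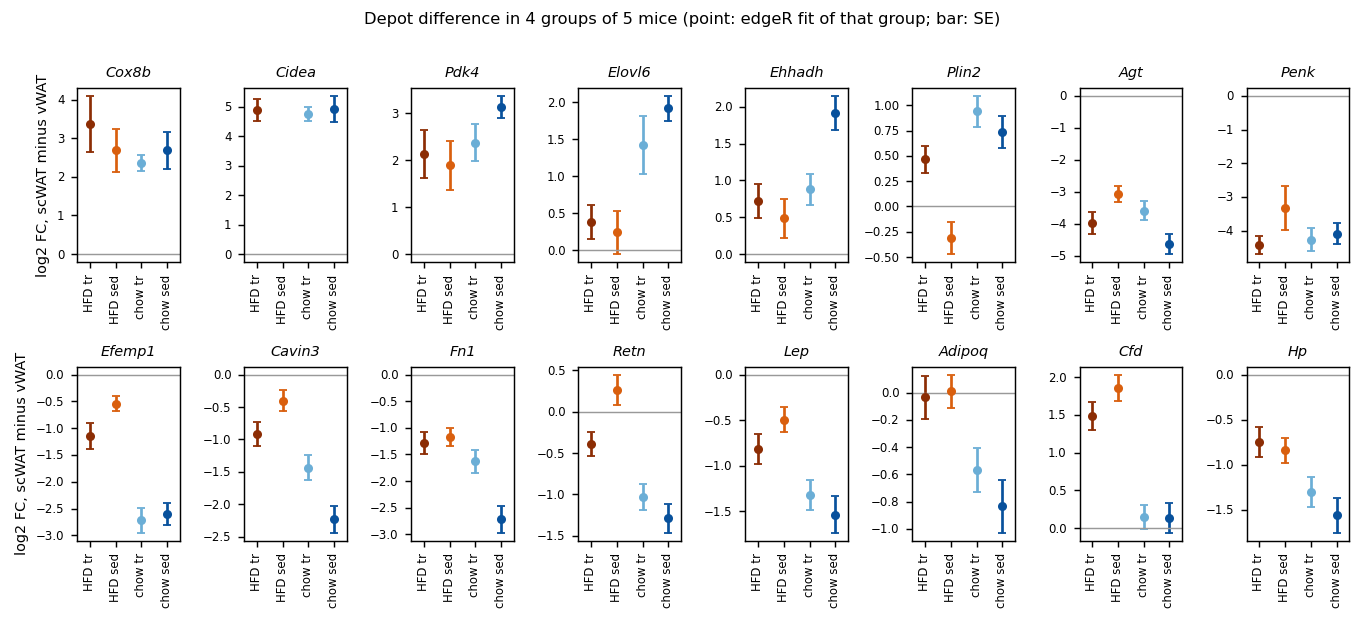
Log2 fold change, scWAT minus vWAT (y axis, each panel with its own scale), with its SE as a bar, of 16 genes in HFD trained, HFD sedentary, chow trained and chow sedentary mice (x axis, 5 mice each); a gene below the filter in a group has no point there. Agt and Penk stay below 0 in all groups, while Retn and Cfd in HFD sedentary mice, at 0.26 and 1.86, lie above their chow sedentary values of -1.29 and 0.14.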

How the data were processed

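Bulk 3′ RNA-seq libraries of scWAT and vWAT from 5 chow sedentary mice were compared, with triceps and the other 30 fat libraries used for reference. The authors deposited a table of 54352 genes with whole-number counts per library, estimated counts from Salmon 0.14.2, with mm10 as the build named, per the submitters' processing notes. The annotation, the strand setting and whether molecular identifiers were collapsed are not stated in the labels. The same deposited table holds log2 values of CPM plus 1, which were used for no test. Of the genes, 33216 had no count in the 10 libraries. Gene coordinates are those of GENCODE vM21. CPM here are counts per 1000000 of a library's total.

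Genes were tested with edgeR 4.0.16 in R 4.3.3 (TMM normalisation, filterByExpr by depot, robust glmQLFit and glmQLFTest, contrast scWAT minus vWAT, mouse as a block), and p-values were adjusted by Benjamini-Hochberg over all genes tested; a call is an adjusted p below 0.05. SE is the log2 fold change divided by the root of the F statistic. Interactions of depot with diet and with training were fitted on all 40 fat libraries with 20 mice as blocks. Pairing comes from the animal codes in the titles; deviations of the depots of a mouse correlated at 0.03, -0.04, 0.24, -0.04 and 0.09 across genes. Mice are separate animals with 1 library per depot. No 2 libraries of a group were identical among 120 pairs. The test was checked on simulated data made from the chow sedentary libraries over 5904 genes, with 200 genes changed: 74% of those changed by 1 on the log2 scale and 100% of those changed by 2 were recovered, with 3 false calls. The changed genes were drawn from the better expressed genes only. All genes had the same simulated spread, and reads of other tissues did not vary between mice. These rates therefore do not describe genes at low counts or the differences between these mice.

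Genes named are the 12 higher and 12 lower genes that ranked first by adjusted p, taken from calls of 1 or more in absolute log2 fold change whose mean log2 CPM was 4 or more, up to 4 called members of each of 48 gene lists, 28 genes of a watch list, and 5 genes per interaction; others are said to be named after their values were seen, and some genes the rule names are not reported here. The members and lists were chosen with earlier results of these data known, so no list count is independent evidence. Alternatives were no block, other normalisations, no filter on low counts, DESeq2 1.42.0, limma-voom 3.58.1, all 40 libraries in 1 fit, leaving out mice, and leaving out the lists of other tissues.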

Additional observations from a re-analysis of the deposited data

Results flagged for a closer look

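In 28 of 228 sets of 5 values (12.3%) the highest or lowest library stood far from the nearest other by Dixon's test. For independent, normally spread values chance does so in about 1 in 20. The sets here are CPM on a linear scale or read sums, and they share libraries, so these shares cannot be compared. Muscle genes of mouse 1 in scWAT were the clearest, with summed skeletal muscle markers of 19287 reads, Acta1 at 6104 CPM, Tnnc2 at 4397, Mylpf at 2746 and Tnni2 at 947 CPM, the highest of the 5 scWAT libraries. The same library was highest for Retnla (239 CPM), Timp4 (95.8), Thbd (32.4), Sfrp5 (24.7) and Agt (12.4 CPM), genes with mean levels of 58.5, 38.2, 2.84, 2.24 and 11.2 CPM in triceps; the part of muscle reads in these values was not tested.

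In scWAT, mouse 3 was highest for mt-Atp6 (36646 CPM) and Orm3 (13.9 CPM) and lowest for Apoe (686 CPM) and Sox17 (1.39 CPM). Mouse 4 was highest for Cox7a1 (719 CPM) and Sucla2 (266 CPM). In vWAT, mouse 3 was highest for Mt2 (564 CPM), Fmo1 (202 CPM), Esam (185 CPM) and Chchd10 (112 CPM), mouse 2 for Acsl1 (954 CPM) and Wt1 (8.14 CPM), mouse 5 for Mgp (234 CPM), mouse 4 for Mbp (15.6 CPM) and mouse 1 for S100b (8.62 CPM). The vWAT library of mouse 1 was lowest for Dlat (24.1 CPM) and Mylpf (0 CPM), and that of mouse 5 lowest for Cidea (3.19 CPM).

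The depot difference itself differed between HFD sedentary and chow sedentary mice for 22 of the genes described, by the interaction test. It was more positive on HFD for Efemp1 (2.07 on the log2 scale), Retnla (1.98), Cavin3 (1.83), Aldh1a1 (1.78), Thbs1 (1.75), Cfd (1.72), Nnat (1.68), Fn1 (1.56), Retn (1.55), Fmo1 (1.32), Cd34 (1.30), Rgs5 (1.25), Mest (1.20), Phgdh (1.17), Lep (1.04), Cav1 (1.00), Timp4 (0.87) and Adipoq (0.85). It was more negative for Elovl3 (-6.85), Lctl (-2.22), Ehhadh (-1.44) and Plin2 (-1.05). Elovl3 rests on few reads, at 0.312 ± 0.698 CPM in scWAT and 5.41 ± 9.68 CPM in vWAT of HFD sedentary mice, against 13.8 ± 8.69 CPM and 0.95 ± 1.42 CPM in chow sedentary mice. Adipoq and Timp4, with adjusted p of 0.0492 and 0.0497, lie nearest to the threshold.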

How the results depend on the processing

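Against 530 depot calls in chow sedentary mice, the count was 412 without the replicate block, 526 with DESeq2-style size factors, 560 with total counts (149 higher, 411 lower), 542 with limma-voom and 523 without the lists of other tissues. It moved to 313 with DESeq2, of which 303 are among the 530, to 1122 without the filter on low counts and to 957 with all 40 fat libraries in 1 fit. Leaving out each mouse in turn gave 278 to 494 calls. With fewer mice it was 949 without the animals with lymph node reads, and, in alternatives chosen after seeing the data, 213 in mice 1 to 3 with heart reads in vWAT and 910 in mice 4 and 5; these fits rest on 2 or 3 pairs, and the cause of the moves was not tested. The diet interaction had 72 calls without the replicate block, against 133, and HFD sedentary 283 against 581; chow trained had 404 against 340 and HFD trained 615 against 647. Of 87 called genes described, 64 kept their call with each mouse left out and 51 in all 16 alternatives; 11 lost it without the block, among them Ucp1, Elovl6, Insig1, Plin2, Agpat2 and Pck1. Ccl21a reversed to -3.53 without the animals with lymph node reads, and Fabp3 to 7.42 in mice 4 and 5. The mitochondrial difference was 3.06 to 4.32 points with each mouse left out, where 4 pairs allow no exact p below 0.125. Depth limits genes under about 3 counts per library, which includes most patterning genes.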

Other observations

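Some genes outside the lists, named after their values were seen, differed between the depots in all 4 groups of mice, which share no animal. Of genes tested in all 4, 18 of 146 called higher and 57 of 331 called lower in chow sedentary mice were called in the same direction in each other group. Itm2a, a membrane protein, had log2 fold changes of 1.62, 2.66, 2.89 and 1.84 in HFD trained, HFD sedentary, chow trained and chow sedentary mice. Mme, the peptidase neprilysin, had 1.08, 1.29, 0.85 and 0.99 in the same order. Psat1, which follows Phgdh in serine synthesis, and Vim, vimentin, were among the 57 lower in scWAT.

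Further lists are given as counts, to be read beside 3.04% called higher and 6.16% lower over all genes tested. In chow sedentary mice 4 of 18 adipocyte identity genes were called higher and 5 lower in scWAT (median -0.16; 5 higher and 1 lower in mice 1 and 3), 1 of 11 insulin and glucose uptake genes higher and 0 lower (0.22), 0 of 7 retinoid genes higher and 2 lower (-0.22), 1 of 7 clock genes higher and 0 lower (0.36), and 1 of 11 glucocorticoid-linked genes higher and 3 lower (-0.29). Of watched genes that were not called, Sfrp2, a Wnt antagonist, averaged 2.54 ± 0.756 CPM in scWAT and 7.66 ± 5.85 CPM in vWAT, Sfrp5 7.48 ± 9.68 CPM in scWAT and 14.6 ± 6.72 CPM in vWAT, and Nr2f1, a nuclear receptor, 2.35 ± 1.62 CPM in scWAT and 3.47 ± 1.28 CPM in vWAT (SD, n = 5 each).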
